A study of Mus musculus with 3 samples.

Results

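The CC chemokine ligands are small secreted proteins that bind receptors on leukocytes and direct their movement. Described here are Ccl2, Ccl3, Ccl4, Ccl5, Ccl6, Ccl7, Ccl8, Ccl9, Ccl17, and Ccl22, taken by symbol from the gene annotation of the count tables. They are 10 of 31053 genes, and each symbol stood for 1 gene in all 3 libraries. In inflamed skin, the monocyte-attracting ligands Ccl2, Ccl7, and Ccl8 draw in monocytes and other leukocytes, Ccl3, Ccl4, and Ccl5 attract monocytes and T cells, and the macrophage ligands Ccl6 and Ccl9 are found in rodents. Ccl17 and Ccl22 share the receptor Ccr4, are made by dendritic cells, and attract T helper 2 cells and regulatory T cells.

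The study examined which cells enter human split-thickness skin implanted under mouse skin (hSTSG), and how VD3, the hormone form of vitamin D, changes cultured bone marrow cells. For the graft, tissue was explanted from C57/BL6 mice on day 14, and the cells of 5 mice were pooled in 1 library. For the cultures, bone marrow of the same strain was grown with GM-CSF, a growth factor for macrophages, granulocytes, and dendritic cells. From day 7, 1 library was made from cells left untreated (Co-Mac) and 1 from cells given VD3 at 1 μM for 24 h (VD-Mac). The annotation holds mouse genes alone, while the methods name a human build, and whether RNA of human graft cells was counted under mouse genes was not tested. Hashtag antibodies gave 1195935 UMIs in the graft and were not used here to tell mice apart, so the graft is 1 sample.

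Each library held counts of unique molecular identifiers (UMIs), which number captured RNA molecules. Co-Mac had 7866 barcodes with 136905324 gene UMIs, VD-Mac had 9794 barcodes with 124731240, and hSTSG had 2644 barcodes with 24472168. Cells with at least 300 genes, under 100000 gene UMIs, and under 10% mitochondrial UMIs were kept, which left 7257, 8825, and 2144 cells with a median of 15804, 12089, and 6637.5 UMIs. Of the kept barcodes, 15 were shared by Co-Mac and VD-Mac, 3 by Co-Mac and hSTSG, and 6 by VD-Mac and hSTSG. Levels are given as counts per 1000 gene UMIs times 1000 (CPM) over summed cells. With 3′ UMIs each molecule is counted once, so levels of different genes were compared without dividing by gene length. There was 1 library per condition, so no test was possible, and all 95% intervals cover counting error only.

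Cells were grouped by clustering without the CC ligands and CC receptors, and clusters were named "-like" from sets of marker genes. The clusters were sensitive to rounding: the same code run with other numeric kernels of the linear algebra library (SkylakeX and Sandybridge in place of Haswell) gave other borders between them, and calls that this changed are named with their values. The cultures are labelled as macrophages, but their largest named class was mature dendritic-like, with 2639 cells of Co-Mac (36.4%) and 3317 cells of VD-Mac (37.6%). The macrophage-like class held 1282 cells (17.7%) and 1136 cells (12.9%). In Co-Mac, 6 of 8 macrophage markers reached 10 CPM with a summed level of 838 CPM (the highest was C1qb at 297 CPM), against 7 of 7 mature dendritic markers with 1445 CPM (Ccr7 at 424 CPM). In VD-Mac 7 of 8 macrophage markers reached it with a sum of 1120 CPM, and 6 of 7 mature dendritic markers with 2121 CPM. Both cultures also held neutrophil markers, S100a8 at 3044 CPM in Co-Mac and 3561 CPM in VD-Mac. The part of these mixtures in the results was not tested beyond the values within classes.

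The graft and the cultures differed in which ligands were abundant. In hSTSG, Ccl8 was the most abundant member at 3694 CPM (95% interval 3669 to 3719), place 23 among all genes by level, followed by Ccl6 at 1186 CPM and Ccl4 at 1028 CPM. Ccl9 (866 CPM), Ccl3 (726 CPM), Ccl7 (635 CPM), and Ccl2 (591 CPM) came next, then Ccl5 at 181 CPM, Ccl22 at 10.2 CPM, and Ccl17 at 6.80 CPM. Each step in this order was larger than counting error.

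In Co-Mac the order was different. Ccl5 stood at 3146 CPM, Ccl17 at 3078 CPM, Ccl6 at 2598 CPM, Ccl22 at 1225 CPM, and Ccl9 at 815 CPM. Ccl2, Ccl3, and Ccl4 lay between 60.4 and 88.1 CPM, and Ccl7 at 3.60 CPM. Ccl8 had 0 UMIs in both cultures, which allows up to 0.0226 CPM in Co-Mac and 0.0258 CPM in VD-Mac (3 counts of the total), against 83651 UMIs in the graft.

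The question in the graft was which cell types carry each ligand. The 2144 graft cells fell into 12 named types and 1 cluster without a name (36 cells, median 668 UMIs), which is left out of the orders of level. Of the 10 members, 3 (Ccl2, Ccl7, and Ccl8) were highest in macrophage-like cells, in each case the 189 resident macrophage-like cells marked by Cd163, Mrc1, and Lyve1. This count was 3 with all kernels, but 2 with a 5% mitochondrial limit, where Ccl2 was highest in fibroblast-like cells at 1539 CPM, and 4 with 30 principal components or the earlier naming rule, where Ccl6 was highest in resident macrophage-like cells at 4390 and 5405 CPM. The names of 2 types need care. Of 295 fibroblast-like cells, 152 came from the macrophage lineage with a median of 1806.5 UMIs and Ccl3, Ccl4, and Tnf as leading genes, and the 110 cycling-like cells were led by Igkc, Ighm, and Top2a together with the dendritic gene Cd209a.

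Ccl8, a monocyte-attracting ligand, was concentrated in the resident macrophage-like cells at 23062 CPM (22882 to 23242), with 75.7% of its UMIs in 8.82% of the cells. The 330 Trem2 macrophage-like cells, marked by Trem2, Gpnmb, and Spp1, stood at 2005 CPM, but 33 of them held 80.4% of these UMIs and their median cell had 2. After thinning every cell to 2000 UMIs, 93.9% of resident macrophage-like cells had a Ccl8 UMI, against 37.8% of Trem2 macrophage-like and 47.1% of fibroblast-like cells. T cell-like cells, which should lack the gene, gave 12.1%, taken here as background. Before thinning, 55 T cell-like cells held 194 Ccl8 UMIs, of which 111 lay in the highest cell. Whether these UMIs came from free RNA in the droplets or from doublets was not tested.

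Before thinning the shares of resident macrophage-like, Trem2 macrophage-like, and T cell-like cells were 96.8%, 71.5%, and 30.9%, and that of fibroblast-like cells was 74.2%. The first 3 types had median depths of 12009, 16010.5, and 5552 UMIs, and 9, 2, and 5 of their cells were too shallow to thin. Small clusters were carried by few cells. Of 691 Ccl8 UMIs in 25 endothelial-like cells, 669 came from 1 cell, and of 1430 in the cycling-like cells, 840 came from 1 cell. Ccl8 in cycling-like (745 CPM) and fibroblast-like cells (728 CPM) rested on the clustering. With either other kernel fibroblast-like cells (143 and 145) had 438 CPM, and in place of the cycling-like type stood dendritic-like cells at 34.6 CPM and B lineage-like cells at 1758 CPM. A cluster without a name (143 and 141 cells) then held Ccl8 at 3282 and 3302 CPM, above Trem2 macrophage-like cells at 1911 CPM, and Ccl3 at 2348 and 2362 CPM.

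Ccl2 and Ccl7, the ligands best known for recruiting monocytes, were shared between resident macrophage-like and fibroblast-like cells. Ccl2 had 1500 CPM (1454 to 1546) in resident macrophage-like and 1322 CPM (1287 to 1357) in fibroblast-like cells, and the latter held the larger share of its UMIs, 40.3% against 30.7%. In resident macrophage-like cells 52.8% of these UMIs came from 19 cells, with a median of 7 per cell. In fibroblast-like cells 79.6% came from 30 cells, with a median of 1, over all 295 cells including the 152 from the macrophage lineage. With either other kernel, the 143 and 145 fibroblast-like cells held 5053 Ccl2 UMIs at 1382 CPM, and Ccl7 stood at 943 CPM. Ccl7 had 2440 CPM (2382 to 2499) in resident macrophage-like and 940 CPM (911 to 970) in fibroblast-like cells. In Trem2 macrophage-like cells Ccl2 stood at 370 CPM and Ccl7 at 403 CPM.

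Ccl2 was found in 61.1% of thinned resident macrophage-like cells and in 43.3% of thinned fibroblast-like cells, compared to 2.31% of T cell-like cells. Unthinned, the shares were 79.9%, 52.9%, and 5.06%, with a median of 5309 UMIs in fibroblast-like cells, of which 85 were left out. Cells with Ccl2 tended to hold Ccl7: of thinned resident macrophage-like cells with Ccl2, 92.7% also had Ccl7, against 58.6% of those without. For fibroblast-like cells these shares were 65.9% and 26.9%.

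Ccl3 and Ccl4, ligands of inflammatory leukocytes, were highest in mast or basophil-like and neutrophil-like cells. The 13 mast or basophil-like cells, led by Il4, Il13, and Csf2, had 53605 CPM of Ccl3 (51807 to 55449) and 62060 CPM of Ccl4 (60125 to 64042). The 476 neutrophil-like cells had 8905 CPM of Ccl3 and 13691 CPM of Ccl4 and held 62.1% and 67.5% of the UMIs of these genes. Trem2 macrophage-like cells stood at 163 and 147 CPM.

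Among thinned neutrophil-like cells, 89.3% had Ccl3 and 81.2% had Ccl4, compared to 2.31% and 5.20% of T cell-like cells. Unthinned shares were 88.0% and 78.4% against 7.87% and 9.55%. The median depth of neutrophil-like cells was 2268 UMIs, and 157 of them were left out of thinning. Of thinned neutrophil-like cells with Ccl3, 83.9% had Ccl4, against 58.8% of those without. The Ccl4 levels of gamma-delta T-like (285 CPM) and mature dendritic-like cells (275 CPM) rested on few cells, as 146 of 203 and 58 of 121 UMIs came from 1 cell each.

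Ccl6 and Ccl9, which attract myeloid cells in mice, spread over both macrophage-like types. Ccl6 had 5313 CPM in mast or basophil-like cells, 3997 CPM in resident macrophage-like, and 1691 CPM in Trem2 macrophage-like cells. Ccl9 had 6589, 2296, and 1477 CPM in the same types, and Trem2 macrophage-like cells held 48.4% of its UMIs. Thinned shares of Trem2 macrophage-like cells were 62.8% for Ccl6 and 79.0% for Ccl9 (85.2% and 96.1% unthinned), compared to 3.47% and 2.31% of T cell-like cells (11.8% and 8.43%).

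Ccl5, a ligand of cytotoxic T cells and dendritic cells, was highest in the 36 mature dendritic-like cells at 3071 CPM (2909 to 3239), which held 33.0% of its UMIs. T cell-like cells followed at 808 CPM (758 to 861). The Trem2 macrophage-like level of 181 CPM rested on few cells, as 489 of 1165 UMIs came from 1 cell. Among thinned cells, 63.6% of mature dendritic-like and 25.4% of T cell-like cells had Ccl5, compared to 0.820% of gamma-delta T-like cells. Unthinned, these were 66.7%, 32.0%, and 1.63%.

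Ccl22 and Ccl17 were sparse in the graft. Ccl22 had 373 CPM (318 to 434) in mature dendritic-like cells, which held 71.3% of its 230 UMIs. Ccl17 had 88.7 CPM (63.0 to 121) in mature dendritic-like and 46.9 CPM (37.7 to 57.6) in cycling-like cells, which held 58.4% of its UMIs. With either other kernel, 74 cells formed a dendritic-like type instead, with Ccl17 at 81.0 CPM (65.0 to 99.7). The nominal highest type for Ccl17 was mast or basophil-like at 160 CPM (76.5 to 293), where all 10 UMIs came from 1 cell. Ccl22 was found in 42.4% of thinned mature dendritic-like cells (69.4% unthinned), against 0 of 178 T cell-like cells.

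**Figure D1:**
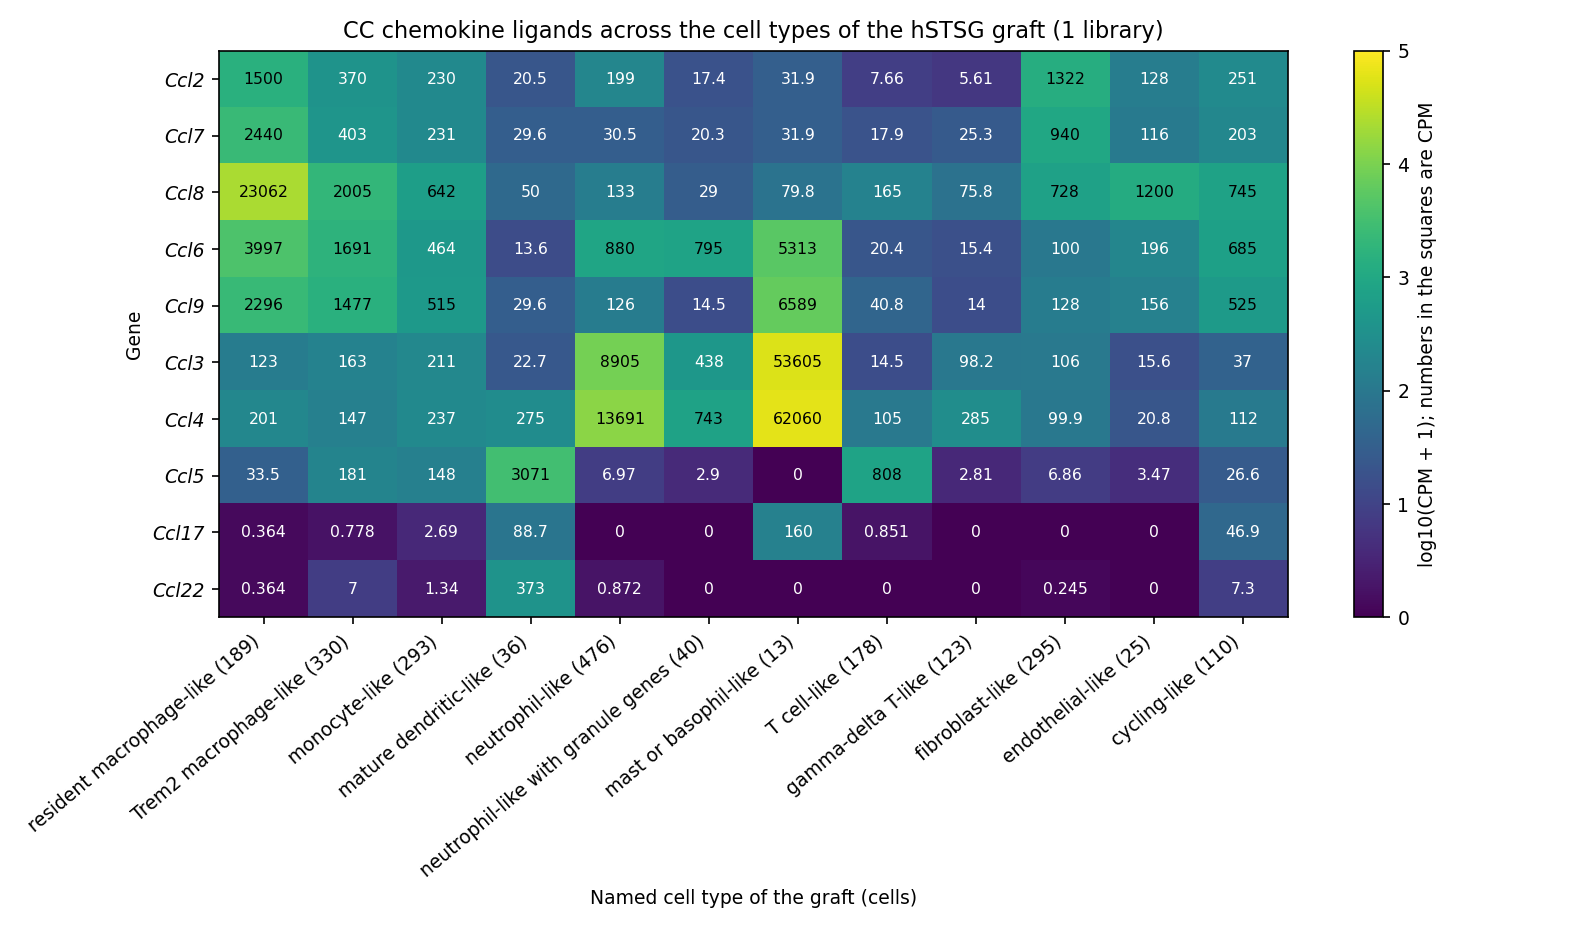
Level of each ligand (vertical) in each named cell type of the hSTSG graft (horizontal, number of cells in brackets), as CPM written in each square and coloured on a log10 scale after adding 1. Ccl8 peaks in resident macrophage-like cells at 23062 CPM, Ccl3 and Ccl4 peak in the 13 mast or basophil-like cells, and Ccl5 and Ccl22 peak in the 36 mature dendritic-like cells.

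The cultures address what VD3 does to the ligands. Over all kept cells, Ccl4 was 60.4 CPM (59.1 to 61.8) in Co-Mac and 201 CPM (198 to 203) in VD-Mac and rose 3.32-fold (log2 1.73, interval 1.70 to 1.77). Ccl17 was 3078 CPM (3069 to 3088) and 1358 CPM (1351 to 1364) and fell, with a log2 ratio of -1.18 (-1.19 to -1.17). A member was called when it passed 2-fold and had 10 CPM or more in the culture where it was higher, and no other member did. So 2 of the 8 members with enough counts were called, 1 in each direction. Across all genes the rule called 6.79% (2.16% higher and 4.63% lower in VD-Mac).

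Ccl3, whose product shares receptors with that of Ccl4, was 74.1 CPM in Co-Mac and 139 CPM in VD-Mac, a log2 ratio of 0.91 (0.87 to 0.94). The myeloid ligands Ccl6 (2598 and 1677 CPM, log2 -0.63) and Ccl9 (815 and 675 CPM, log2 -0.27) were lower in VD-Mac, as were Ccl22 (1225 and 801 CPM, log2 -0.61) and Ccl5 (3146 and 2705 CPM, log2 -0.22). Ccl2 was 88.1 and 76.9 CPM (log2 -0.20). Ccl7 was below the minimum in both libraries, with 477 and 291 UMIs, and Ccl8 was not seen.

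Of the 8 tested members, 2 had a ratio above 0, compared to 39.0% of all tested genes. Their median log2 ratio was -0.24, beside -0.10 for 7732 tested genes. The treatment was visible in its own target: Cyp24a1, the enzyme that inactivates VD3, had 1 UMI in Co-Mac and 36662 in VD-Mac, a log2 ratio of 15.35 with an interval of 12.87 to 20.65. Vdr, the VD3 receptor, rose from 51.1 to 135 CPM.

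Class shares differed between the cultures, so the comparison was repeated within classes. The 2 cultures lay apart in the larger classes: mature dendritic-like cells of Co-Mac lay almost all in cluster 1 (2632 cells) and those of VD-Mac in cluster 0 (3301 cells). Macrophage-like cells of Co-Mac lay in cluster 5 (1282 cells) and those of VD-Mac in cluster 7 (1130 cells). The names were not equally firm: cluster 5 had a macrophage score of 0.506, just past the minimum of 0.5, with dendritic next at 0.320, and none of its leading genes was a macrophage marker. Cluster 7 scored 1.53, with dendritic at -0.362, and Ccl3 and Ccl4 were among its leading genes. Cycling-like cells of Co-Mac lay in clusters 3 (71.4%) and 8 (20.1%) and those of VD-Mac in clusters 4 (56.0%) and 6 (43.3%). The cDC1-like cells of both cultures shared cluster 11, and the mast or basophil-like cells shared cluster 12. Over 5 named classes, 35 member and class pairs had at least 10 CPM in either culture, and 17 were higher in VD-Mac. In macrophage-like cells 3 of 8 members were above 0, beside 3398 of 7538 genes. In mature dendritic-like cells it was 2 of 5 beside 3960 of 6654, and in cycling-like cells 3 of 8 beside 2848 of 7869. No such count was taken for the other classes. Left out were clusters 2, 9, and 10, which had no name, and the neutrophil-like cells with granule genes. In the latter, Ccl17 (48.0 and 174 CPM) and Ccl22 (69.0 and 172 CPM) were higher in VD-Mac. Ccl5 (612 and 335 CPM) and Ccl6 (3071 and 1995 CPM) were lower there. In cluster 2 (889 and 1028 cells), Ccl4 was 22.2 and 51.0 CPM, Ccl3 171 and 327 CPM, and Ccl17 78.7 and 90.0 CPM. Ccl6 (3587 and 2274 CPM) and Ccl9 (429 and 236 CPM) were lower in VD-Mac in that cluster. Cluster 9 held 4 cells of Co-Mac and 298 of VD-Mac, and cluster 10 held 68 and 175.

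Between these macrophage-like clusters, which differ in markers too, the ligands of inflammatory leukocytes rose and Ccl17 fell. Ccl4 went from 164 to 725 CPM (log2 2.14, 2.10 to 2.19) and Ccl3 from 165 to 440 CPM (log2 1.41, 1.36 to 1.46). Ccl17 went from 5974 to 1692 CPM (log2 -1.82, -1.84 to -1.80). Ccl5 (602 and 122 CPM, log2 -2.30) and Ccl22 (385 and 63.5 CPM, log2 -2.60) also passed 2-fold. These were 5 of 8 tested members, where the rule called 10.2% of 7538 genes in this class. Ccl6 (5948 and 4665 CPM, log2 -0.35), Ccl9 (1978 and 1780 CPM, log2 -0.15), and Ccl2 (202 and 261 CPM, log2 0.37) did not.

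The rise of Ccl4 and Ccl3 was also a larger share of positive cells. Thinned to 2000 UMIs, 8.60% of Co-Mac and 38.2% of VD-Mac macrophage-like cells had Ccl4, and 17.0% and 41.7% had Ccl3. Mature dendritic-like cells, taken as background, gave 0.114% and 0.393% for Ccl4 and 0.303% and 0.635% for Ccl3. Unthinned, the macrophage-like shares were 28.7% and 66.3% for Ccl4 and 48.1% and 78.6% for Ccl3, at median depths of 21267.5 and 15098 UMIs. Ccl17 was found in 66.1% and 27.9% of thinned macrophage-like cells (82.4% and 44.1% unthinned).

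These calls differed in how far they rested on the clustering. Over 8 other clusterings Ccl4 stayed past 2-fold, at 1.32 to 2.25. Ccl3 was 0.64 at resolution 0.3 and -0.80 with a 5% mitochondrial limit, where Ccl17 was 0.20. Another set of cells bore the name under that limit, 106 of Co-Mac and 758 of VD-Mac, of which 2 and 90 were macrophage-like before. With the class names kept under it (234 and 101 cells, a choice made after seeing the data), Ccl3 was 1.71, Ccl4 2.37, and Ccl17 -3.25.

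The falls of Ccl5 and Ccl22 in macrophage-like cells did not hold. Ccl5 had the opposite sign with both other kernels (0.88 and 0.88), and its ratio ran from -2.12 to 1.19 over the clusterings. Ccl22 ran from -3.45 to 0.81, Ccl9 from -0.73 to 1.05, and Ccl2 from -0.41 to 0.56. Ccl6 passed 2-fold with the 5% limit and was -0.41 or lower in all 8, below the value given. In Co-Mac 94.3% of the Ccl5 UMIs and 88.5% of the Ccl22 UMIs of the class came from 129 of its cells.

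In mature dendritic-like cells, Ccl22 fell from 3281 to 1535 CPM (log2 -1.10, -1.11 to -1.08). It was 1 of 5 tested members called, beside 4.78% of 6654 genes called in this class. Ccl17 was 2002 and 1352 CPM (log2 -0.57, -0.58 to -0.55) and Ccl5 was 8828 and 5415 CPM (log2 -0.70), which stayed the most abundant member there. Ccl6 (log2 0.16) and Ccl9 (log2 0.26) were above 0, and both changed sign among the clusterings. The median of the 5 was -0.57 against 0.07 for all genes. Ccl22 was found in 96.9% and 82.4% of thinned mature dendritic-like cells, compared to 17.4% and 4.49% of macrophage-like cells.

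Ccl17 in this class depended on where the clusters were drawn. With the SkylakeX kernel the class held 2990 cells of VD-Mac, all of them mature dendritic-like in the main clustering too, and Ccl17 passed 2-fold at -1.68. With the Sandybridge kernel it was -0.57. Ccl22 lay between -1.28 and -1.09 in all 8 other clusterings. In VD-Mac 72.3% of the Ccl17 UMIs of the class came from 332 of its cells, compared to 47.7% from 264 cells in Co-Mac.

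In the 75 and 118 cDC1-like cells, conventional dendritic cells that present antigen to CD8 T cells, Ccl17 was the most abundant member at 3624 and 3155 CPM (log2 -0.20, but 0.24 with 30 principal components). In the 59 and 75 mast or basophil-like cells Ccl3 rose from 220 to 473 CPM (log2 1.10, 0.82 to 1.39) and stayed past 2-fold in all 8 other clusterings (1.02 to 1.37). Ccl4 in cDC1-like cells did too (log2 2.78, and 1.88 to 3.02), on 3 and 30 UMIs. The other ratios in these 2 classes rested on small numbers of cells, and several turned sign with the settings.

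Ccl4 was also higher in the VD-Mac cells named cycling-like, but the line between this class and the macrophage-like one moved. At resolution 0.3, 1117 of these VD-Mac cells were named macrophage-like. In the 2204 and 2586 cycling-like cells Ccl4 went from 52.6 to 224 CPM (log2 2.09, 2.02 to 2.15), Ccl3 from 69.8 to 153 CPM (log2 1.13, 1.07 to 1.19), and Ccl17 from 2558 to 1260 CPM (log2 -1.02, -1.04 to -1.01). These were 3 of 8 tested members, and the rule called 7.82% of 7869 genes in this class. Over the 8 other clusterings Ccl4 passed 2-fold in 7 and was -0.32 with the 5% mitochondrial limit. Ccl3 ran from -0.65 to 1.10 and Ccl17 from -1.31 to -0.62, so their calls in cycling-like cells did not hold. Uncalled members passed 2-fold in some clusterings: Ccl22 (main log2 -0.83) ran from -3.43 to -0.77, Ccl5 (-0.33) from -2.16 to 0.25, and Ccl2 (-0.12) from -1.19 to -0.10.

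Among thinned cycling-like cells, 3.71% of Co-Mac and 18.7% of VD-Mac had Ccl4 (15.5% and 33.4% unthinned, at median depths of 22186 and 3915.5 UMIs, with 181 and 808 cells left out). Few cells carried it: within the class, 95.8% of the Ccl4 UMIs of Co-Mac came from 221 cells and 81.1% of those of VD-Mac from 259.

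When the VD-Mac levels within classes were weighted by the class shares of Co-Mac, 4 members passed 2-fold. Ccl4 had a log2 ratio of 2.11 and Ccl3 of 1.26, Ccl17 of -1.18, and Ccl22 of -1.13. In this weighting 4 of the 8 members were above 0, as Ccl2 stood at 0.18 and Ccl9 at 0.02. The median over all genes was -0.05 here, and their share above 0 was not taken. The rule called 6.27% of all genes. With the Sandybridge kernel 3 members passed 2-fold, where 8.49% of all genes were called.

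**Figure D2:**
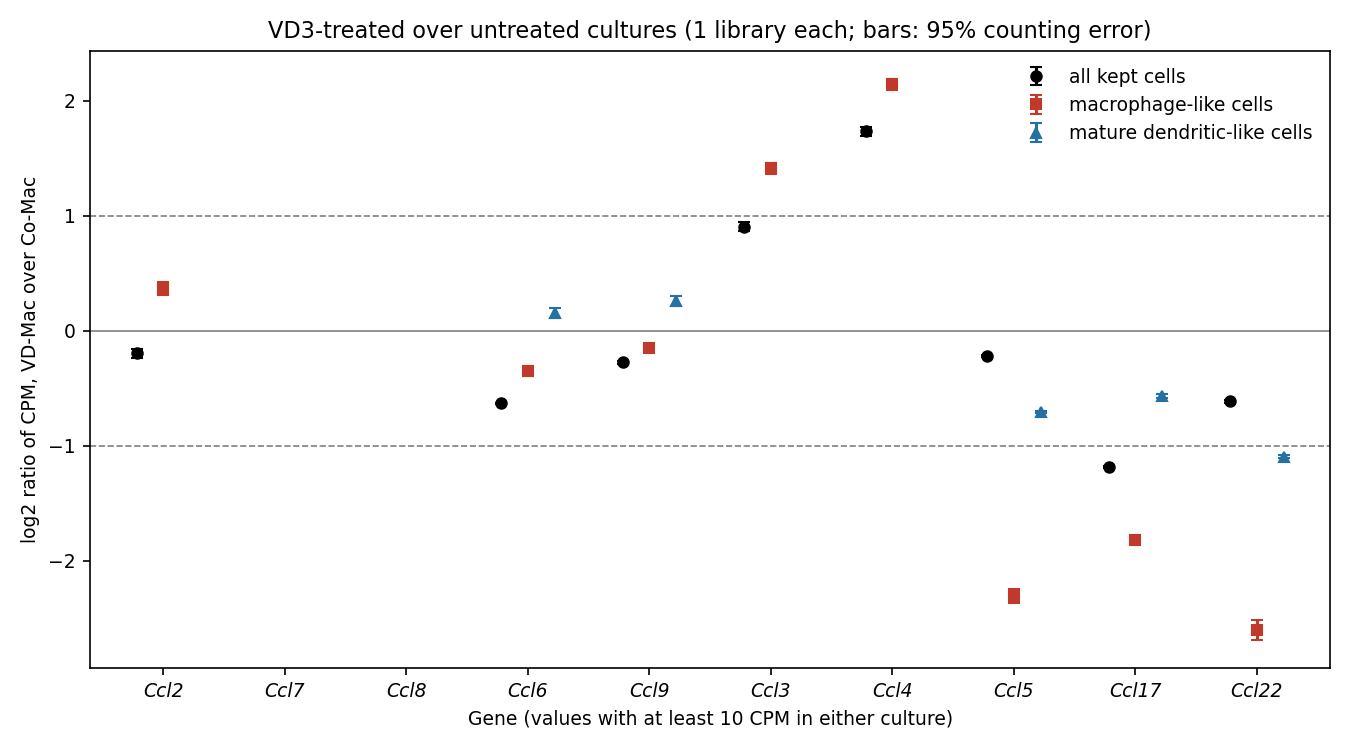
Log2 ratio of CPM in VD-Mac over Co-Mac (vertical) for each ligand (horizontal) over all kept cells, macrophage-like cells, and mature dendritic-like cells, with 95% counting intervals. Dashed lines mark 2-fold. Values with under 10 CPM in both cultures are not drawn. Ccl3 and Ccl4 lie above 1 in macrophage-like cells (1.41 and 2.14), and Ccl22 lies below -1 in mature dendritic-like cells (-1.10).

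Other genes of the pathway were read from lists chosen by function. Of 9 other CC ligands, 1 reached 10 CPM in the cultures (Ccl25, a gut and thymus ligand, log2 0.36), and of 9 CC receptors and decoys outside the Ccr2 cluster, 1 did. This was Ccr7, the lymph node homing receptor, at 424 and 713 CPM (log2 0.75). Of 11 NF-kB subunits and feedback genes, which act upstream of many chemokine genes, 0 passed 2-fold and 8 were above 0 (39.0% of all tested genes were), with a median of 0.26. Nfkbia, the inhibitor of NF-kB, was 299 and 577 CPM (log2 0.95), and Nfkbie was 42.1 and 23.8 CPM (log2 -0.82). With a minimum of 10 CPM, 8 members were detected in each culture and 9 in the graft.

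In the graft, 3 of the 9 other CC ligands reached 10 CPM. Ccl24, an eosinophil-attracting ligand, had 1650 CPM in resident macrophage-like cells and 1405 CPM in monocyte-like cells. Ccl12, a monocyte-attracting relative of Ccl2, had 637 CPM in resident macrophage-like cells. Ccl11, the eosinophil ligand eotaxin, had 489 CPM in fibroblast-like cells, which held 97.7% of its UMIs. Among the receptors, Ccr7 was highest in mature dendritic-like cells at 3692 CPM.

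The ligand genes lie in clusters, which the choice of members did not use. On the GRCm38 build, with positions from GENCODE, 8 of the 10 lie on chromosome 11 within 1629113 bases. Ccl2 (chromosome 11, 82035571 to 82037453, + strand) is 8258 bases from Ccl7 (82045712 to 82047525), and Ccl8 follows at 82115185 to 82116799. Ccl5 (83525778 to 83530518), Ccl9 (83572919 to 83578636), Ccl6 (83587882 to 83593087), and Ccl3 (83647844 to 83649355) are on the - strand, and Ccl4 (83662584 to 83664683) is on the + strand, 13228 bases from Ccl3. On chromosome 8, Ccl22 (94745590 to 94751699) and Ccl17 (94810453 to 94812036) are 58753 bases apart, both on the + strand. The count tables give no coordinates, and the labels name mm9 for the build, so these positions describe the annotation and not the alignment.

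**Figure D3:**
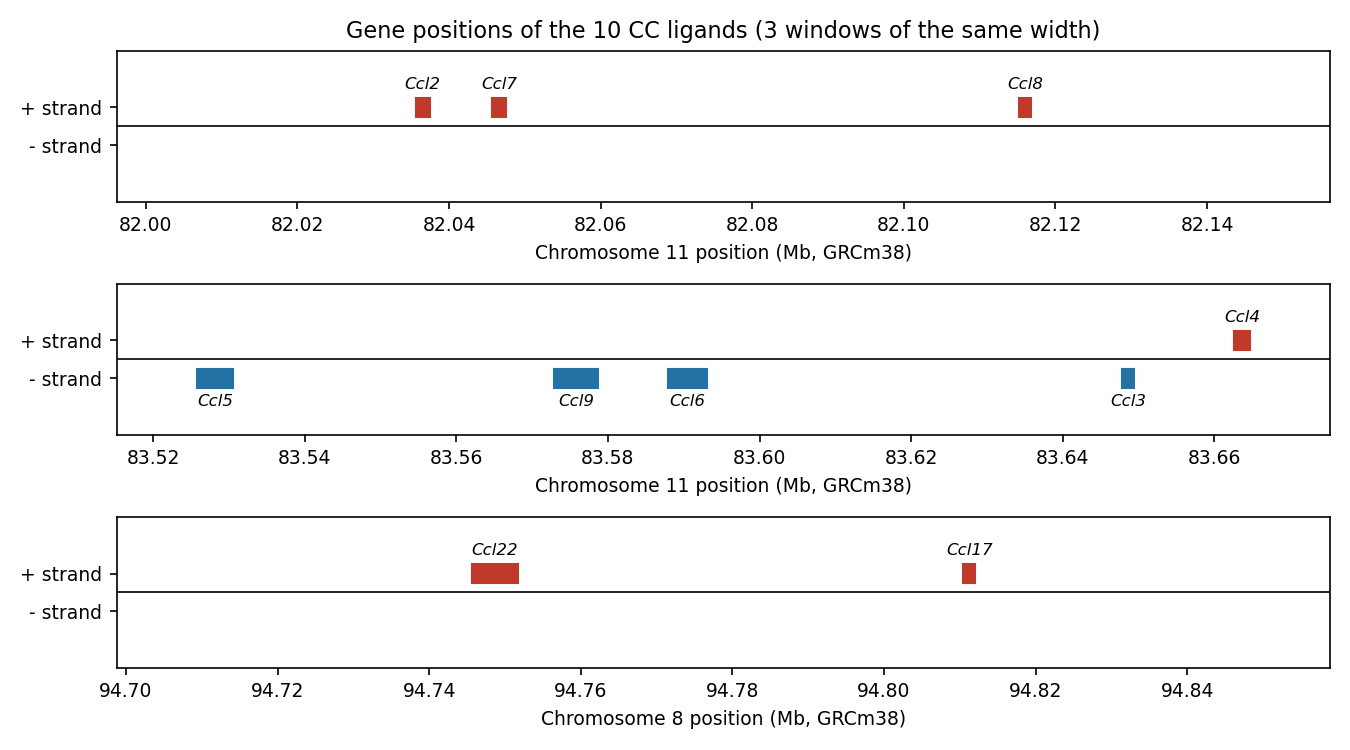
Position of the 10 genes to scale in 3 windows of the same width (horizontal, Mb on GRCm38), with the + strand above the line and the - strand below it. Ccl2 and Ccl7 are 8258 bases apart, Ccl9 and Ccl6 9245, Ccl3 and Ccl4 13228, and Ccl22 and Ccl17 58753.

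Some neighbouring genes had like levels over cell types and others did not. Pearson r of log2(CPM + 1) was taken over 24 points (12 named graft types and 6 named classes in each culture, which share libraries and so are not independent), and, after these values were seen, within the graft and within the cultures. It was 0.943 for Ccl7 and Ccl8 (0.907 within the graft, with Ccl8 absent from the cultures), 0.816 for Ccl2 and Ccl7 (0.911 and 0.889), 0.795 for Ccl3 and Ccl4 (0.948 and 0.575), and 0.701 for Ccl6 and Ccl9 (0.795 and 0.620). The r of 0.837 for Ccl17 and Ccl22 was mostly between graft and cultures, as it was 0.563 and 0.153 within them. For the other adjacent members it was 0.551 for Ccl6 and Ccl3 (0.622 and 0.966), so within the cultures this pair was closer than Ccl6 and Ccl9. It was -0.0254 for Ccl5 and Ccl9 (-0.152 and 0.0477), and -0.577 for Ccl8 and Ccl5 (but 0.0860 within the graft). Ccl5 was closest to Ccl22, on another chromosome (r = 0.852, 0.690 and 0.900 within). These values are a description only.

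Among 6928 genes with at least 50 CPM in any of these points, the 3 nearest genes are given for 7 of the 10 members, with an r of 0.662 or more within the graft and within the cultures. Those of Ccl8 and Ccl17 had less (0.367 for Gm42418 in the graft and 0.398 for Mpc1 in the cultures). For Ccl4 they were Acod1 (r = 0.940), the itaconate enzyme of activated myeloid cells, Gk (0.863), and the cytokine gene Il1a (0.850), and for Ccl3 they were Tnfsf14 (0.904), Irak3 (0.865), and Clec4e (0.854). For Ccl22 they were Gm13546 (0.956), Trim7 (0.926), and Clec2i (0.916). Ccl7 was nearest to Mrc1, a macrophage mannose receptor gene (0.934), Emp1 (0.922), and the neutrophil chemokine gene Cxcl1 (0.921). Ccl2 was nearest to Fn1 (0.884), Pmp22 (0.869), and Ctsl (0.859). Ccl9 was nearest to P2rx4 (0.818), Npl (0.765), and Parvb (0.744), and Ccl5 to Adap1 (0.895), Clec2i (0.889), and Insl6 (0.864).

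Members were also compared by promoter sequence, from the RefSeq table, which holds 6 of the 10 (GRCm38.p6). The 250 bases before the RefSeq start were searched on both strands for TTCNNNNGAA, TGANTCA, the NF-kB motif, and the vitamin D response motif. Of 32851 promoters of this length, 5.85%, 6.75%, 3.90%, and 0.0396% held them. The vitamin D response motif was in none of the 6 members, Ccl3, Ccl6, Ccl8, and Ccl22 held none of the 4 motifs, and Ccl9 held TGANTCA 53 bases and the NF-kB motif 35 bases before its start. Ccl17 held TTCNNNNGAA 154 bases before its start. Ccl17 is shown for its match and Ccl22 as its neighbour without one, with capitals marking the TTCNNNNGAA match; Ccl17 is chr8:94810203-94810452 and Ccl22 is chr8:94745434-94745683, both on the + strand. The RefSeq start of Ccl22 comes later than the GENCODE start given above (94745590), so the end of its sequence lies inside the gene as annotated there.
Ccl17: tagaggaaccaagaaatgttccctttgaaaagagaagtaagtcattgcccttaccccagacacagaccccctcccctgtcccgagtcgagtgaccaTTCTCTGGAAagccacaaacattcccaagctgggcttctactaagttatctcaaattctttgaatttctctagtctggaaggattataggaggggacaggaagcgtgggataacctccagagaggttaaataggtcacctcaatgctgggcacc
Ccl22: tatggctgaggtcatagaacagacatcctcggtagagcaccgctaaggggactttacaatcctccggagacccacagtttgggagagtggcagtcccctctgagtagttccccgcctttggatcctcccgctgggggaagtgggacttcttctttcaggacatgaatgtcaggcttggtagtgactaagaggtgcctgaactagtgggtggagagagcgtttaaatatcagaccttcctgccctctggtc

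Ccl6 and Ccl9, whose levels went together, had the longest identical run among the 15 pairs of member promoters, 13 bases, and the next longest of any pair was 10. Ccl3 and Ccl6, whose r within the cultures was higher (0.966 against 0.620), shared a run of 8 bases. The promoters of Ccl6 and Ccl9 are shown with their run of 13 bases in capitals. Ccl6 is chr11:83593088-83593337 and Ccl9 is chr11:83578637-83578886, both on the - strand.
Ccl6: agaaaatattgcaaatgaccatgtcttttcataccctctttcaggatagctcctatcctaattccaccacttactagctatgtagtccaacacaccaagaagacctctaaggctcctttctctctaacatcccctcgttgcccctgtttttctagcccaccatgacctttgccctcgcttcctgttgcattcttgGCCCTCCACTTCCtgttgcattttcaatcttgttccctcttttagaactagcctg
Ccl9: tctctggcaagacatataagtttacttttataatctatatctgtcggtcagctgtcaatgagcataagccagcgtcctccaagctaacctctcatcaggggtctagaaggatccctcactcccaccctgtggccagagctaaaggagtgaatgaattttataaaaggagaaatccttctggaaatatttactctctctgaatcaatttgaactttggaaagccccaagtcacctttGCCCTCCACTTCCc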

How the data were processed

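The counts, as the authors deposited them, are UMIs by mouse gene and cell barcode from Cell Ranger 3.1.0, without normalization. Members and lists were chosen with earlier results of these data known. Seurat 5.3.0 (R 4.3.3, Matrix 1.6.5) clustered the graft, its macrophage and dendritic lineage again, and both cultures together, with log normalization to 10000, 2000 variable genes other than CC ligands and receptors, 15 principal components, 15 neighbours, and resolution 0.5. Names went by the mean log2 ratio of marker sets (minimum 0.5, with 5 CPM added and 3 markers detected).

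In all, 2 naming rules were tried. The earlier, which read leading genes above 20 CPM and any marker UMI, was itself written after marker and member levels of clusters had been seen. It called graft cells erythroid-like (435 in the main clustering) though 1 cell held 7467 of their 11265 Hbb-bs UMIs. The rule used here asks for leading genes in at least 25% and markers in at least 10% of cells, and was settled after those names were known. The earlier rule is an alternative added after seeing the data.

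The numeric kernel was meant to be Haswell, but a first run used SkylakeX by mistake, which a clean rerun brought to light through other clusters. The naming rules were written on that first run. Counts over classes at first left out cycling-like cells for no recorded reason, and these were put in after their values were known. Haswell was kept for the values given here whatever they showed, and SkylakeX and Sandybridge, used for the clustering of all cells with the lineage clustered again under Haswell, are alternatives added after seeing the data.

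Intervals are exact: Poisson (levels), Clopper-Pearson (shares), and conditional binomial (ratios). For 7 members the 3 genes with the highest r were named. Cells under 2000 UMIs (472, 1149, and 301) were left out of thinned shares. Scrublet (scanpy 1.11.5) called 1, 0, and 8 cells, so none was removed, and an alternative removes the 457, 691, and 45 highest scores. Python 3.11.15, numpy 2.4.6, scipy 1.17.1, pandas 2.3.3, and matplotlib 3.10.9 were used.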

Additional observations from a re-analysis of the deposited data

How the results depend on the processing

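The count of members past 2-fold was 2 in the main analysis (6.79% of all genes) and became 4 with Co-Mac class shares (6.27%), 4 with these under the earlier naming rule (6.15%), 4 under the SkylakeX kernel (6.01%), 3 under the Sandybridge kernel (8.49%; these 3 added after seeing the data), 3 with the mean of single-cell CPM (5.03%), and 5 at 1.5-fold (18.7%). The count above 0 went from 2 to 4 with Co-Mac class shares, also 4 under that naming rule, 4 under SkylakeX, and 3 under Sandybridge. The median log2 ratio over all genes was -0.10 in the main analysis and -0.05, -0.04, -0.06, and -0.17 in these settings. Within classes, ratios past 2-fold reversed sign as follows, and sign changes of smaller ratios are not listed. Macrophage-like: with the 5% mitochondrial limit Ccl3 was -0.80, Ccl5 0.77, Ccl17 0.20, and Ccl22 0.27, where the name went to other cells; without the highest doublet scores Ccl5 was 1.19 and Ccl22 0.81; Ccl5 was 0.094 at resolution 0.3, 1.04 at 0.8, 1.00 with 30 principal components, 0.88 with SkylakeX, and 0.88 with Sandybridge, where Ccl22 was 0.22. cDC1-like: Ccl9 0.66 and Ccl22 -1.45 (5% limit), Ccl5 -1.96 and Ccl22 -1.55 (doublets), Ccl2 -2.47 (30 components), Ccl5 -0.22 and Ccl22 -0.58 (Sandybridge). Cycling-like: Ccl3 -0.65 and Ccl4 -0.32 (5% limit) and Ccl3 -0.00501 (30 components). Mast or basophil-like: Ccl17 -0.57 (5% limit) and Ccl5 1.96 (doublets). With class names kept (added after seeing the data), the 5% limit gave cDC1-like Ccl9 0.83 and mast or basophil-like Ccl17 -0.44, and doublet removal gave cDC1-like Ccl5 -1.94 and Ccl22 -1.60 and mast or basophil-like Ccl5 1.16 and Ccl17 -0.17. The cause was not tested, except that kernels differ by rounding alone. No paired analysis was possible because there was 1 library per condition.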
